A study of Mus musculus with 24 samples.

Results

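The genes described here are 10 genes of DNA replication, chosen by name: Mcm2, Mcm3, Mcm4, Mcm5, Mcm6 and Mcm7, the subunits of the replicative helicase, Pcna, the sliding clamp, and Rrm2, Tyms and Tk1, enzymes of nucleotide supply. They and the lists of related genes were chosen with earlier results of these data known. Their shares beside those of all genes are therefore descriptions. All 10 were found among the 55359 gene rows of the count table. All 10 also passed the filter on low counts in each comparison, so that they stood among 13235 genes tested at the higher ethanol dose.

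Before a cell copies its DNA, the ring of MCM subunits is loaded onto origins of replication, and in S phase it unwinds the double helix ahead of the polymerases, which PCNA holds on the template. RRM2 is the small subunit of ribonucleotide reductase, TYMS makes thymidylate from deoxyuridylate, and TK1 salvages thymidine, so these enzymes supply the building blocks of the new strands. Transcription of most of these genes is raised towards S phase by E2F factors and held down by RB proteins in resting cells. In the oligodendrocyte lineage the precursors divide, whereas myelin-forming oligodendrocytes have left the cell cycle.

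The cells were oligodendrocytes from the cortex of C57Bl6J mouse pups aged 5 to 7 days, sorted with magnetic beads for O4, which immature oligodendrocytes carry on their surface, and cultured for 3 days with triiodothyronine as the main differentiating factor. In experiment 1, 6 wells received 30 mM ethanol for 3 further days and 6 control wells received none. In experiment 2, 6 wells received 10 mM ethanol and 6 control wells none. Controls stood in another incubator than the ethanol plates, so the effect of ethanol cannot be told apart from that of the incubator. Each dose was given in 1 experiment and batch only, so dose, experiment and batch cannot be told apart. All 4 groups share the strain, the sort, the T3 medium and the culture times, and the labels do not tie wells to pups or cell preparations, so p-values measure the spread between wells, which may be technical.

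RNA was measured by 3′ tag sequencing, which reads each transcript near its 3′ end, so a longer transcript does not give more counts. The 24 wells had total counts from 1184609 to 1817028, and levels are given in CPM, the count scaled to the total of its well. A member's count in a well lay between 27 and 231, which limits the precision of each value. Of the 10 oligodendrocyte markers, Mbp, a major myelin protein, stood at 2492 ± 109 CPM (SD, n = 6) in the controls of experiment 1. Other cells were present as well. The summed level of 14 microglial markers lay between 257 and 423 CPM in the controls of experiment 1 and between 3174 and 3719 CPM in those of experiment 2.

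Promoter sequences are shown for 4 helicase genes because an 8-base E2F word was found in them. It was found in no other member with a promoter at hand, and the helicase gene Mcm2 was among those without it. RefSeq promoters on GRCm38.p6, from 250 bases before the transcription start to 50 bases from it on, were matched by symbol for 9 of the 10 genes, and Mcm4 was not matched. Several forms of the E2F word were searched on both strands, TTTCCCGC, TTTCGCGC, TTTGCCGC and TTTGGCGC. At least 1 of them lay in the promoters of Mcm3, Mcm5, Mcm6 and Mcm7, which is 4 of 9, against 2.6% of 27025 gene symbols in the table and 2.26% of its 32851 promoters. In the stretches below, read 5′ to 3′ on the gene's own strand, capitals mark these words. Mcm3 lies on the minus strand at chr1:20820263-20820313, Mcm5 on the plus strand at chr8:75109336-75109387, Mcm6 on the minus strand at chr1:128359725-128359835, and Mcm7 on the minus strand at chr5:138171840-138172068. Rrm2, on the plus strand at chr12:24708174-24708273, is shown for comparison, as a member that held none of these words in its window.
Mcm3: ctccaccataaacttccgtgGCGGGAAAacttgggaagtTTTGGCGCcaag
Mcm5: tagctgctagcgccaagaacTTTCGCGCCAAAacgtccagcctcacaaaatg
Mcm6: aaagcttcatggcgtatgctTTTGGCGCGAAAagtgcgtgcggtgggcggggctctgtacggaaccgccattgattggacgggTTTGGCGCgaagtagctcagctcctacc
Mcm7: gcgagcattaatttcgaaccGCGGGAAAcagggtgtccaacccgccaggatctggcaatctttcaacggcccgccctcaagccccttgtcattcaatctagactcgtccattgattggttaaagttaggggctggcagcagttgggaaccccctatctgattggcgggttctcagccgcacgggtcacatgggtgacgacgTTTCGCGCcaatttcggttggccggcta
Rrm2: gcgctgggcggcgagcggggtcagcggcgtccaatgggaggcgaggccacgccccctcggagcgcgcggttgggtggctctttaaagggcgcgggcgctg

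In Mcm5 the 12 capitals are 2 words on opposite strands that share 4 bases, the first beginning 153 bases before the start. Mcm6 has the same kind of pair, beginning 110 bases before the start, and a separate word 47 bases before it. In Mcm3 both words lie after the start, at bases 20 and 39, and in Mcm7 1 lies 165 bases before the start and the other at base 17 after it. Mcm7 has a second RefSeq promoter, which held none of the words. The 5-base word CCAAT, a site of NF-Y, was far more common, with at least 1 on either strand in 7 of the 9 members and in 41.1% of gene symbols. In Mcm7, 1 CCAAT begins on the last base of an E2F word. Tyms and Tk1 held neither word. A match is a description of letters, and no match says only that these letters are not in this window.

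At 30 mM ethanol, 8 of the 10 genes were lower than in the controls of the same experiment, by edgeR's quasi-likelihood test with an adjusted p under 0.05. These were Mcm2, Mcm3, Mcm5, Mcm6, Mcm7, Rrm2, Tyms and Tk1. Among all 13235 genes tested, 6.65% were called lower. Because the members were chosen with earlier results of these data known, these shares are only a description. The count of members called fell to 5 when replicate 3 or 4 of the 30 mM wells or control replicate 3 was left out. The median log2 fold change of the members was -0.44, against 0.02 for all genes tested. In 4 members, Mcm3, Mcm6, Mcm7 and Rrm2, every ethanol well lay below every control well, a separation shown by 3.77% of all genes tested. The summed level of the members was between 638 and 722 CPM in the control wells and between 449 and 504 CPM in the ethanol wells. In such bulk samples, fewer cells of a type and less RNA per cell cannot be told apart.

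**Figure D1:**
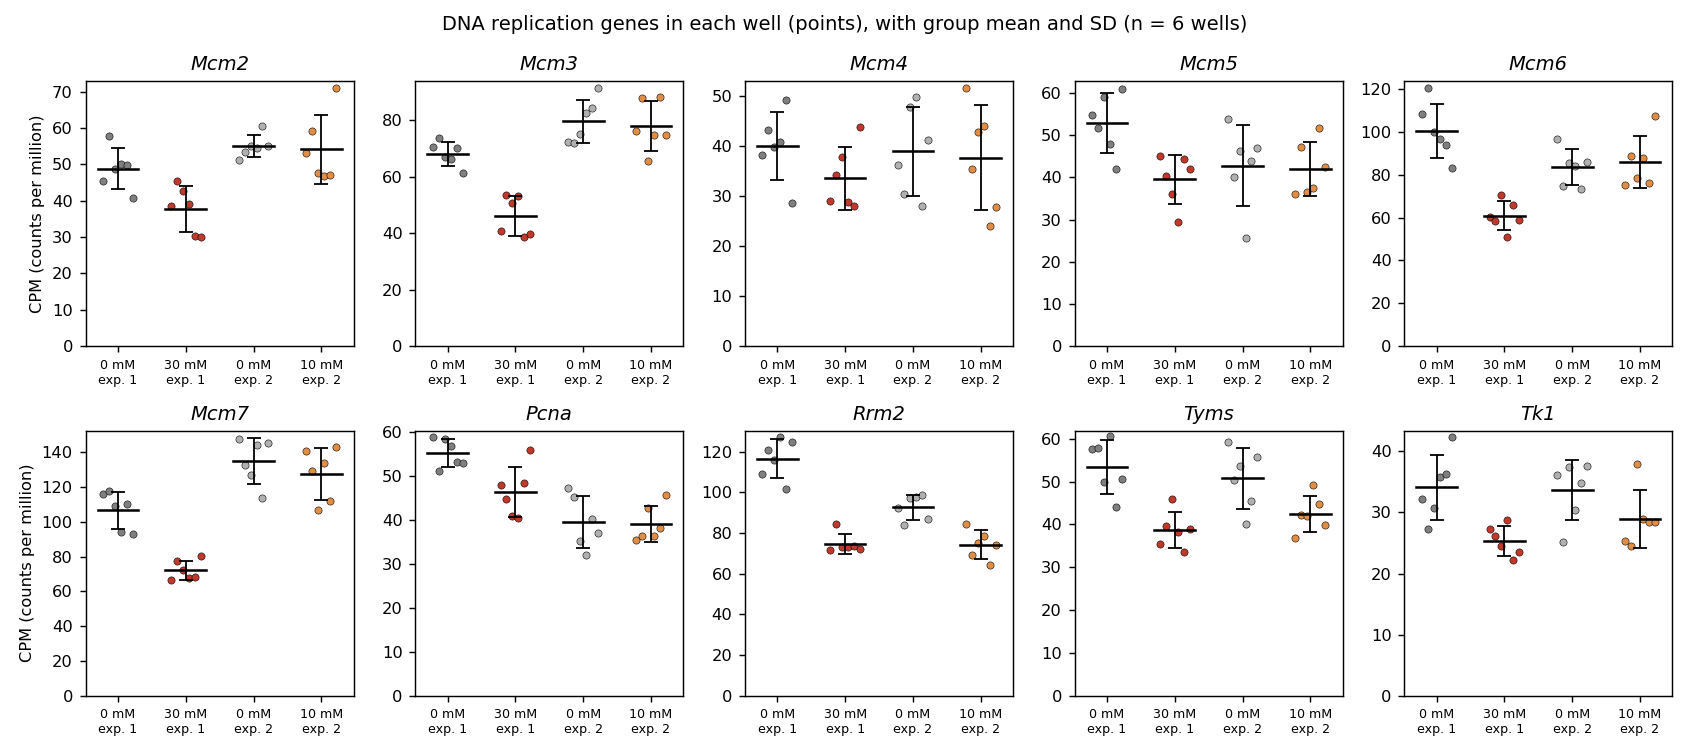
Level of each of the 10 genes in each well, in CPM on a linear axis from 0, by group, with points for wells and the group mean and SD (n = 6 wells). The 30 mM wells of Mcm3, Mcm6, Mcm7 and Rrm2 lie wholly below the control wells of experiment 1. Those of Mcm2, Mcm4, Mcm5, Pcna, Tyms and Tk1 overlap with the controls.

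Mcm6, one of the 6 helicase subunits, fell most among the members. Its level was 83.1 CPM in the lowest, 98.5 in the median and 120 in the highest control well, and 50.8, 59.7 and 70.5 CPM in the lowest, median and highest 30 mM well. The groups did not overlap. The mean fell from 100.4 ± 12.8 to 60.8 ± 6.72 CPM (SD, n = 6 each), a log2 fold change of -0.73 (SE 0.0967) with an edgeR adjusted p of 4.63e-07. This is 1.66-fold lower, and Mcm6 was at place 55 of the 13235 genes ordered by p.

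Mcm7, the helicase subunit whose gene also carries the Mir25, Mir93 and Mir106b miRNAs within it, had control values of 92.9, 110 and 118 CPM (lowest, median and highest). Its 30 mM wells stood at 66.3, 70.1 and 80.1 CPM, all below the controls. The log2 fold change was -0.57 (SE 0.0896, edgeR adjusted p = 1.45e-05). In the GENCODE M21 annotation the 3′ end of Mcm7 overlaps the 3′ end of Cops6, a signalosome subunit on the opposite strand, by 64 bases. Ap4m1, another protein-coding gene on the opposite strand, overlaps Mcm7 by 421 bases. The use of strand in the counting is not given in the sources used here, so reads from these stretches cannot be assigned with certainty. Ap4m1 stood at 10.8 ± 3.02 CPM in controls and 12.1 ± 3.25 CPM at 30 mM (SD, n = 6 each, edgeR adjusted p = 0.751). Cops6 itself stood at 184 ± 16.8 CPM in controls and 162 ± 8.68 CPM at 30 mM (SD, n = 6 each, edgeR adjusted p = 0.108), and the 3 miRNA rows were at 0 counts in all wells.

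Mcm3 showed the same separation. Its control wells lay at 61.1, 68.4 and 73.7 CPM and its 30 mM wells at 38.6, 45.8 and 53.4 CPM (lowest, median and highest). The log2 fold change was -0.56 (SE 0.105, edgeR adjusted p = 0.000207).

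Mcm5 and Mcm2 were called lower with smaller differences and overlapping wells. For Mcm5 the lowest, median and highest values were 42.1, 53.4 and 61.1 CPM in controls and 29.5, 41.2 and 45.0 CPM at 30 mM, and the log2 fold change was -0.41 (SE 0.118, edgeR adjusted p = 0.0206). For Mcm2 they were 40.7, 49.3 and 57.8 CPM and 29.9, 38.8 and 45.3 CPM, and the log2 fold change was -0.37 (SE 0.120, edgeR adjusted p = 0.0423). In each gene the highest ethanol well exceeded the lowest control well. Both calls depended on single wells. Mcm5 lost its call without replicate 3 (edgeR adjusted p = 0.0591) or replicate 4 (0.0797) of the 30 mM wells, or without control replicate 3 (0.0701). Mcm2 lost it without any 1 of 9 wells, namely replicates 3, 4, 5 and 6 at 30 mM and control replicates 1, 2, 3, 4 and 5, with edgeR adjusted p-values up to 0.125, and under 3 of 8 other alternatives, with adjusted p-values up to 0.156.

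Mcm4, which forms the helicase core with Mcm6 and Mcm7, did not pass the test. Its values were 28.5, 40.3 and 49.2 CPM in controls and 27.9, 31.6 and 43.7 CPM at 30 mM, and the groups overlapped over most of their range. The log2 fold change was -0.27 (SE 0.135, edgeR adjusted p = 0.211), with a 95% interval from -0.54 to -0.01 that still includes the values of Mcm2 and Mcm5. The summed level of the 6 subunits was 417 ± 33.1 CPM in controls and 290 ± 17.6 CPM at 30 mM (SD, n = 6 each).

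Pcna, the clamp that tethers DNA polymerases, also missed the threshold. It stood at 51.2, 54.9 and 58.9 CPM in controls and at 40.5, 46.3 and 55.8 CPM at 30 mM. The ethanol wells spread into the control range. The log2 fold change was -0.26 (SE 0.105, 95% interval -0.46 to -0.05, edgeR adjusted p = 0.12).

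The 3 nucleotide enzymes were all called lower at 30 mM. Rrm2, the regulated subunit of ribonucleotide reductase, had control values of 102, 118 and 127 CPM and 30 mM values of 71.6, 72.9 and 84.5 CPM (lowest, median and highest), with no overlap. The test gave -0.64 on the log2 scale with an SE of 0.0852, which is 1.56-fold lower, and an edgeR adjusted p of 5.58e-07, at place 60 by p. Tyms, thymidylate synthase, had 44.0, 54.0 and 60.5 CPM in controls and 33.6, 38.6 and 45.9 CPM at 30 mM, so that 1 ethanol well lay above the lowest control value. Its log2 fold change was -0.47 (SE 0.113, edgeR adjusted p = 0.00364).

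Tk1, the cytosolic thymidine kinase, was the least abundant member, with 27.2, 34.0 and 42.4 CPM in controls and 22.2, 25.3 and 28.7 CPM at 30 mM. The ranges overlapped slightly. The log2 fold change was -0.41 (SE 0.137, edgeR adjusted p = 0.0485), close to the threshold. The call was lost without any 1 of 9 wells, namely replicates 3, 4, 5 and 6 at 30 mM and control replicates 1, 3, 4, 5 and 6, with edgeR adjusted p-values up to 0.113, and under 7 of 8 other alternatives, DESeq2 (adjusted p = 0.106) among them.

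At 10 mM ethanol, none of the 10 genes was called by edgeR, against 0.657% of the 13538 genes tested there in either direction. At an unadjusted p under 0.05, 2 of the 10 were counted by edgeR and by limma voom and 1 by DESeq2. No member passed the adjusted threshold with DESeq2 or limma voom. The share of all genes under the unadjusted threshold was not counted, so these counts have no background beside them. The members' median log2 fold change was -0.04, and that of all genes tested was -0.00. The summed level of the members was between 608 and 692 CPM in the controls of experiment 2 and between 575 and 654 CPM at 10 mM.

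The helicase genes and the clamp had small fitted changes at 10 mM. Mcm6 stood at 73.5, 84.7 and 96.7 CPM in controls and 75.4, 83.3 and 108 CPM at 10 mM, with a 95% interval of the log2 fold change from -0.13 to 0.22. Mcm7 had 114, 138 and 147 CPM in controls and 107, 131 and 143 CPM at 10 mM (-0.23 to 0.07). Mcm3 had 71.9, 78.7 and 91.2 CPM in controls and 65.5, 75.4 and 88.3 CPM at 10 mM (-0.20 to 0.14). In all 3 genes the wells of the groups were intermingled, and the intervals do not reach the values these genes had at 30 mM. Mcm2 had 51.3, 54.7 and 60.6 CPM in controls and 46.8, 50.3 and 70.9 CPM at 10 mM. Mcm5 had 25.6, 45.1 and 53.9 CPM in controls and 36.2, 40.0 and 51.6 CPM at 10 mM. Mcm4 had 28.0, 38.7 and 49.7 CPM in controls and 23.9, 39.1 and 51.6 CPM at 10 mM. These groups overlapped throughout, and the intervals were wider, from -0.22 to 0.19 for Mcm2, from -0.29 to 0.19 for Mcm5 and from -0.30 to 0.23 for Mcm4. Pcna, at 32.0, 38.5 and 47.3 CPM in controls and 35.4, 37.3 and 45.5 CPM at 10 mM, overlapped likewise (-0.24 to 0.22).

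The nucleotide enzymes had lower fitted values than the helicase genes at 10 mM, and none passed the test. Rrm2 stood at 83.8, 94.5 and 98.5 CPM in controls and at 64.3, 74.6 and 84.6 CPM at 10 mM. The highest ethanol well lay just above the lowest control well. The log2 fold change was -0.31 (SE 0.0835, 95% interval -0.47 to -0.14), with an edgeR unadjusted p of 0.000427 and an adjusted p of 0.0582, at place 98 by p. It passed without replicate 1 of the 10 mM wells (adjusted p = 0.0387) and with upper quartile normalization (0.0411). Over all alternatives its edgeR, DESeq2 or limma adjusted p ranged from 0.0387 to 0.2.

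Tyms had 40.0, 52.0 and 59.2 CPM in controls and 36.9, 42.1 and 49.1 CPM at 10 mM, a log2 fold change of -0.25 (95% interval -0.46 to -0.04, edgeR adjusted p = 0.392). Tk1 had 25.2, 35.5 and 37.6 CPM in controls and 24.5, 28.4 and 37.9 CPM at 10 mM, a log2 fold change of -0.21 (95% interval -0.46 to 0.05, edgeR adjusted p = 0.628). The wells of both genes overlapped between the groups. Whether nucleotide enzymes differ from helicase genes as groups at 10 mM was not tested.

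The changes at the 2 doses were set against each other in 1 fit of all 24 wells, as the log2 fold change at 30 mM minus that at 10 mM. The difference was negative for all 10 members and passed the test for 3 of them, Mcm3, Mcm6 and Mcm7, where 2.4% of the 14655 genes tested were called in this direction. It was -0.79 (SE 0.137, edgeR adjusted p = 8.39e-05) for Mcm6, -0.50 (SE 0.124, adjusted p = 0.00987) for Mcm7 and -0.54 (SE 0.138, adjusted p = 0.0132) for Mcm3. The changes of these 3 helicase genes were thus more negative at 30 mM than at 10 mM, each dose relative to its own controls. At 10 mM itself none of the 3 was called. The members' median difference was -0.35, against 0.02 for all genes tested.

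For Rrm2 the difference between the doses was -0.34 (95% interval -0.58 to -0.11, edgeR adjusted p = 0.0984), and in 31 other fits at the same threshold of 0.05 it passed in 1, without replicate 2 of the 30 mM wells (adjusted p = 0.0313). For Tyms and Tk1 it was -0.23 and -0.21 (95% intervals -0.54 to 0.07 and -0.58 to 0.16), and for Pcna -0.26 (-0.57 to 0.05). Mcm2, Mcm4 and Mcm5 had differences of -0.36, -0.25 and -0.37 with edgeR adjusted p-values of 0.222, 0.556 and 0.259. For the 3 nucleotide enzymes, then, a difference between the doses was not detected, and the lower ends of their intervals lie between -0.58 and -0.54.

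**Figure D2:**
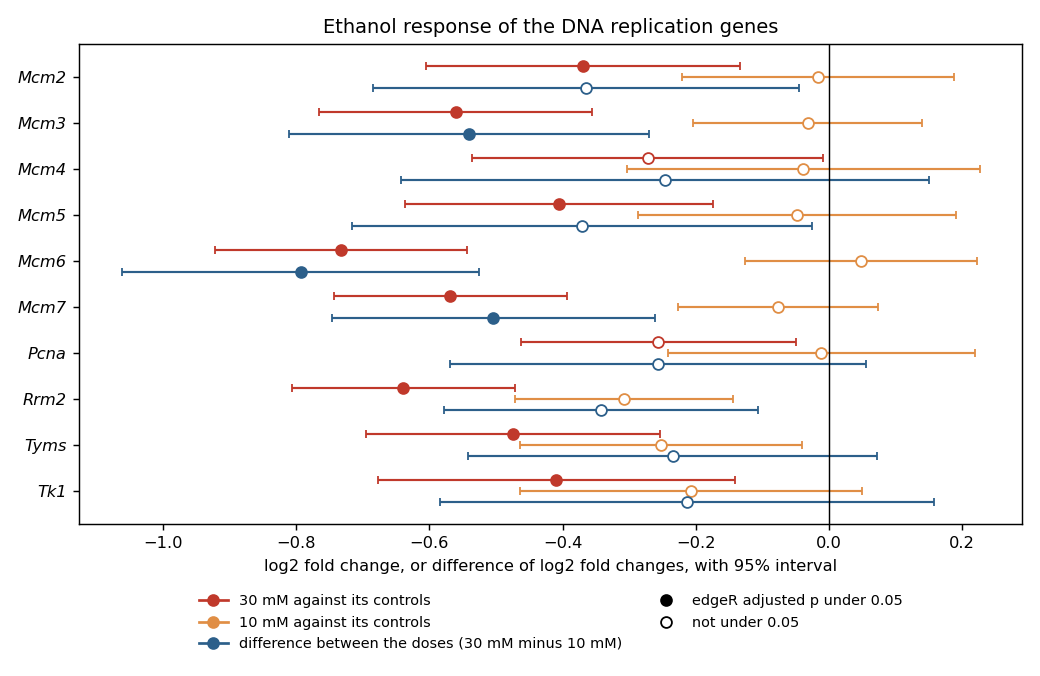
Log2 fold change of each of the 10 genes, ethanol against the controls of the same experiment, with its 95% interval, at 30 mM and at 10 mM. All 10 values at 30 mM are negative, from -0.73 for Mcm6 to -0.26 for Pcna, while those at 10 mM lie between -0.31 for Rrm2 and 0.05 for Mcm6.

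Without ethanol, the levels of 5 of the 10 genes differed between the control groups of the experiments. This share is near the background, since 43.6% of the 13479 genes tested differed between them. The clamp gene Pcna was higher in experiment 1 by a log2 difference of 0.52 (edgeR adjusted p = 4.94e-05), with 55.2 ± 3.24 against 39.5 ± 5.92 CPM (SD, n = 6 each). Rrm2 was higher by 0.38 (adjusted p = 4.99e-05), with 117 ± 9.73 against 92.6 ± 6.19 CPM (SD, n = 6 each). The control wells of these 2 genes did not overlap between experiments. How many of all genes separate in this way between the control groups was not counted, so this only describes the wells.

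The helicase subunits did not differ in 1 direction. Mcm5 and Mcm6 were higher in experiment 1 by 0.33 and 0.31 (edgeR adjusted p = 0.0167 and 0.00204), and Mcm7 was lower by 0.30 there, a log2 difference of -0.30 (adjusted p = 0.00127). The call for Mcm5 was lost without replicate 4 of the experiment 2 controls (edgeR adjusted p = 0.0967) and with upper quartile normalization, under which Mcm3 was called lower instead (0.0219). With the total count as a covariate Mcm5 and Mcm6 were both lost (adjusted p = 0.0961 and 0.084). Mcm2, Mcm3, Mcm4, Tyms and Tk1 were not called, with log2 differences of -0.12, -0.18, 0.10, 0.12 and 0.05. In the lists of related genes calls went in both directions between the control groups. Of all 13479 genes tested in this comparison, 2873 (21.3%) were called higher in experiment 1 and 3007 lower. There, 6 of 17 licensing genes were higher and none lower (Gins4, Cdc45 and Orc3 first by p), 9 of 27 fork proteins higher and 5 lower (Pole4, Pold2 and Dna2 first), and 7 of 17 other nucleotide enzymes higher and none lower (Ctps1, Paics and Samhd1 first). Of 9 chromatin genes 1 was higher and 2 lower, of 17 genes of E2F and RB control 5 and 1, and of 22 mitosis genes 9 and 1. All 12 microglial markers that were tested were lower in the controls of experiment 1, and their part in these differences was not tested.

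The genes that work with the members were read from the same 30 mM comparison, in which 6.65% of all genes tested were called lower and 3.02% higher. Of 17 tested genes of origin licensing and helicase activation, 2 were lower and none higher at 30 mM, with a median log2 fold change of -0.28, and 15 were not called. Cdt1, which loads the MCM ring onto origins, stood at 20.8 ± 1.46 CPM in controls and 13.2 ± 1.14 CPM at 30 mM (SD, n = 6 each), with no overlap (log2 fold change -0.65, edgeR adjusted p = 0.0125). Cdc45, which joins the ring to form the active helicase, had a log2 fold change of -0.66 (adjusted p = 0.0335). Mcm8 and Mcm9, relatives of the subunits that act outside the replicative ring, were not called (-0.08 and -0.00), and their 95% intervals, from -0.48 to 0.32 and from -0.43 to 0.42, were wide.

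Of 27 tested genes of polymerases and other fork proteins, 8 were lower and none higher, with a median of -0.28. Lig1, the ligase that joins Okazaki fragments, fell from 125 ± 13.5 to 78.7 ± 9.49 CPM (SD, n = 6 each, log2 fold change -0.66, edgeR adjusted p = 1.38e-06). Prim1, the primase subunit that starts each fragment, fell by 0.78 on the log2 scale (adjusted p = 0.00191). Clspn, a fork checkpoint adaptor, fell by 0.70, Rfc3, a subunit of the clamp loader that places PCNA on DNA, by 0.58, and Rpa2, a subunit of the single-strand binding protein, by 0.47 (adjusted p = 0.00104, 0.00165 and 0.00207).

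Among 17 other enzymes of nucleotide supply, 7 were lower and none higher, with a median of -0.20. Rrm1, the large subunit that pairs with RRM2, fell from 125 ± 8.13 to 91.6 ± 9.72 CPM (SD, n = 6 each), a log2 fold change of -0.45 (edgeR adjusted p = 0.000169). Shmt2, which feeds mitochondrial one-carbon metabolism, fell by 0.58 on the log2 scale (adjusted p = 2.75e-05), and Dut, which removes dUTP and yields the substrate of TYMS, by 0.47 (adjusted p = 0.000857). Umps, of pyrimidine synthesis, and Nme1, a nucleoside diphosphate kinase, fell by 0.48 and 0.23 (adjusted p = 0.0165 and 0.0151).

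Of 8 genes of chromatin replication, 3 were lower and none higher (median -0.41). Nasp, a histone chaperone, Hells, a remodeller, and Dnmt1, the maintenance DNA methyltransferase, had log2 fold changes of -0.39, -0.61 and -0.44 (edgeR adjusted p = 0.000561, 0.00192 and 0.00501). Of 17 tested genes of E2F and RB control, 4 were lower and 1 higher (median -0.25). Ccna2, the S phase cyclin, fell by 0.68, the G1 kinases Cdk4 and Cdk6 by 0.40 and 0.36, and Rbl1, an RB relative, by 0.86 (adjusted p = 4.51e-05, 0.000227, 0.00663 and 0.0315). Rb1, the retinoblastoma protein that holds E2F in check, was the gene that rose, from 38.4 ± 5.86 to 49.8 ± 4.28 CPM (SD, n = 6 each, log2 fold change 0.38, adjusted p = 0.0275).

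Genes of mitosis and G2/M fell with those of replication at 30 mM, 16 of 22 tested (median -0.47), Plk1 and Top2a among them with log2 fold changes of -0.70 and -0.41 (edgeR adjusted p = 1.97e-05 and 5.72e-05). Their summed level was between 1722 and 1926 CPM in the controls and between 1164 and 1444 CPM at 30 mM.

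**Figure D3:**
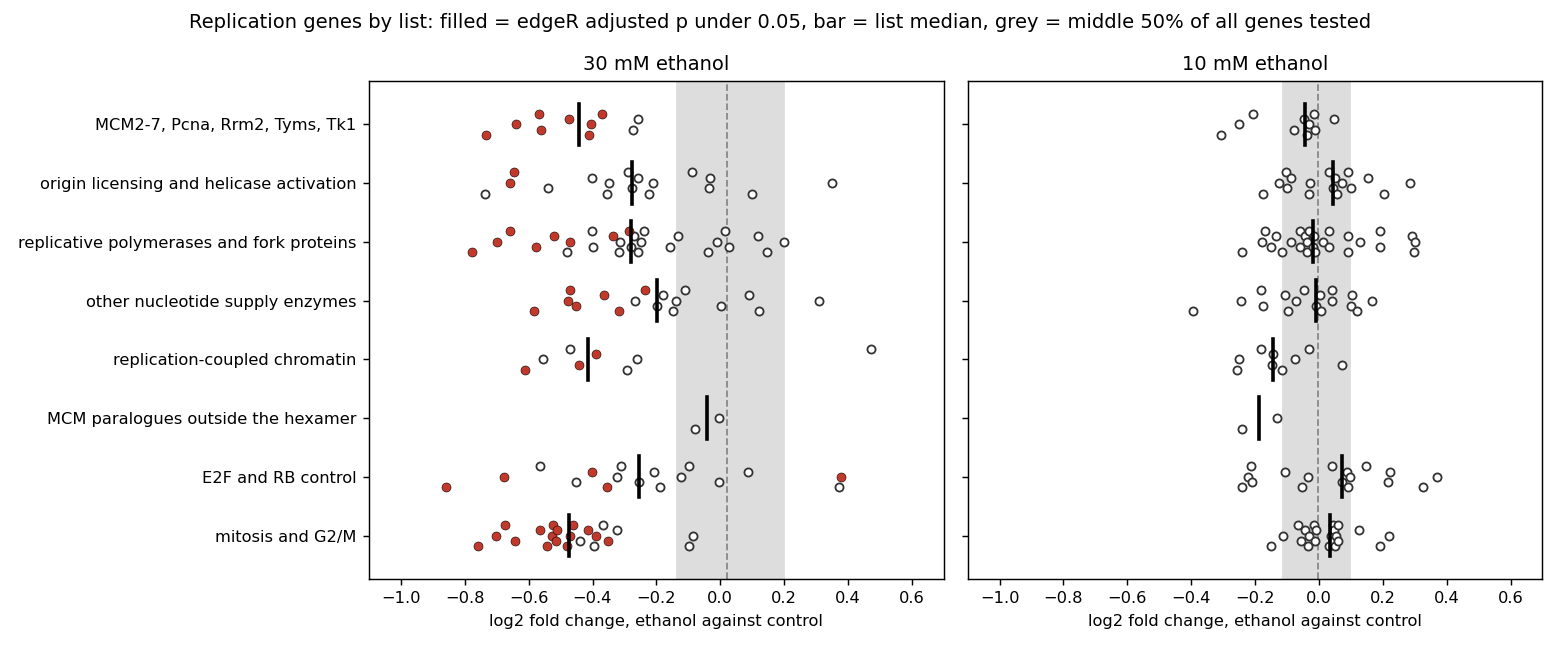
Log2 fold change of every tested gene of the replication and cell cycle lists at 30 mM (left) and 10 mM (right), with filled points for an edgeR adjusted p under 0.05, a bar at each list's median and a grey band for the middle 50% of all genes tested. At 30 mM the list medians lie between -0.47 and -0.04 and filled points are nearly all on the left, and at 10 mM no point is filled.

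At 10 mM none of the 111 genes tested in these 7 lists was called by edgeR, DESeq2 or limma voom. Among all genes tested there, edgeR called 0.657%. Of the 111 genes, 7, 3 and 5 had an unadjusted p under 0.05 by edgeR, DESeq2 and limma voom. The share of all genes under that unadjusted threshold was not counted, at 10 mM or for the difference between the doses. The medians of the lists lay between -0.19 and 0.07. The differences between the doses passed for Lig1 and Prim1, 2 of 27 fork proteins (-0.61 and -0.98, edgeR adjusted p = 0.00158 and 0.0116), where DESeq2 called 1 and limma voom 2, and for none of the 17 licensing genes, of which 6 had an unadjusted p under 0.05 by edgeR and none passed with DESeq2 or limma voom. Among all genes tested, edgeR called 2.4% as more negative at 30 mM by adjusted p, which is no background for the unadjusted count. The differences passed most often in the mitosis and G2/M list, for 12 of 22 genes by edgeR and DESeq2 and 11 by limma voom. They also passed for Shmt2, Dut and Rrm1 in nucleotide supply (-0.70, -0.59 and -0.47), for Nasp (-0.47), and for Ccna2, Cdk4 and Ccne2, a G1/S cyclin (-0.84, -0.45 and -0.79). Rrm1 thus passed the test of the difference and its partner Rrm2 did not. The 95% interval of Rrm2, from -0.58 to -0.11, includes the value of Rrm1, and these genes were not tested against each other. At 10 mM Rrm1 stood at 99.9 ± 6.66 CPM against 100.6 ± 9.80 CPM in controls (SD, n = 6 each).

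Markers of cell types are given against the 3.02% of all genes tested that were called higher at 30 mM and the 6.65% called lower. Of 10 oligodendrocyte markers 7 rose and none fell, and their summed level was between 6908 and 8045 CPM in the controls and between 8298 and 14546 CPM at 30 mM, with replicate 1 the highest well. Of 8 precursor markers 1 fell (Olig1), and the summed level was between 870 and 1011 CPM in controls and between 832 and 902 CPM at 30 mM. Of 8 astrocyte markers 5 rose, with 4032 to 4716 CPM in controls and 5282 to 6377 CPM at 30 mM. Of 9 tested fibroblast and mural markers 6 fell, with 757 to 1048 CPM in controls and 370 to 455 CPM at 30 mM, so that the wells did not overlap. Of 9 tested microglial markers 1 rose (Cx3cr1), with 257 to 423 CPM in controls and 248 to 407 CPM at 30 mM. No endothelial marker of 3 tested was called, Cldn5 was at 0 counts in every well of experiment 1, and of 5 neuronal markers 1 fell (Stmn2). The part of these cell types in the lower level of the replication genes was not tested.

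**Figure D4:**
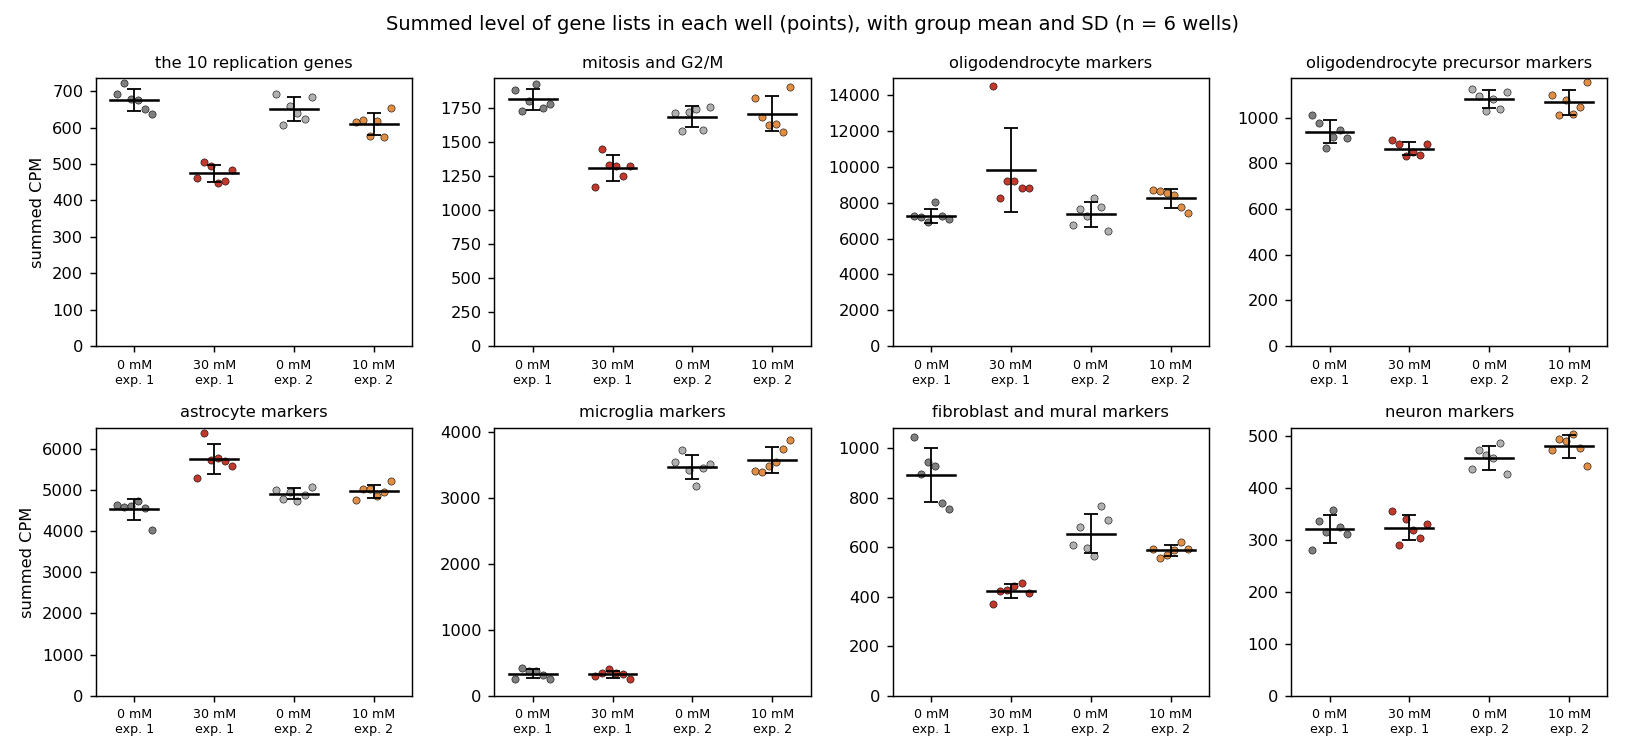
Summed CPM of the genes of each list in each well (points), with group mean and SD (n = 6 wells). The summed level of the fibroblast and mural markers and that of the mitosis genes lie lower in every 30 mM well than in the controls of experiment 1, and microglial markers differ between the experiments.

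At 10 mM, 3 of 10 oligodendrocyte markers and 1 of 12 tested microglial markers were higher, and 2 of 8 tested fibroblast and mural markers were lower. Of 5 tested neuronal markers 1 was called in each direction. Of all 13538 genes tested, 53 were called higher and 36 lower. The fibroblast and mural sum was between 564 and 768 CPM in the controls of experiment 2 and between 559 and 623 CPM at 10 mM, and these ranges overlapped.

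Across the 24 wells, the genes whose level followed the mean of the members most closely, of 13490 genes compared, were Nes, Capg, Lgals1, Myl9 and Mfsd2a, with Pearson r of 0.953, 0.933, 0.933, 0.925 and 0.913 after each experiment's mean was subtracted. Nes encodes nestin, an intermediate filament of precursor cells, Capg an actin capping protein, Lgals1 a galectin, Myl9 a myosin light chain of contractile cells and Mfsd2a a lipid transporter. All 5 fell at 30 mM, from -0.67 for Mfsd2a to -1.54 for Myl9, so that the shared group difference enters these correlations. After each group's mean was subtracted as well, the genes were Sars, Nes, Gtf3c1, Ptpa and Ift74, with r between 0.747 and 0.801, and Nes was on both lists. These are descriptions over wells that share the medium, and share a batch only within each experiment, while total counts differed between wells.

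Within groups the members followed each other unevenly. After each group's mean was subtracted, the correlation of a gene with the mean of the other 9 over the 24 wells was 0.57 for Mcm6, 0.52 for Mcm7, 0.41 for Tyms and 0.39 for Mcm2. It was 0.17 for Rrm2, 0.11 for Mcm3 and Pcna, -0.03 for Mcm5, -0.06 for Mcm4 and -0.19 for Tk1. With counts as low as 27 per well, a weak correlation carries little information.

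Of the pseudogene rows of Pcna and Tyms, Pcna-ps1 had 1 count over all 24 wells, Pcna-ps2 had 2 and Tyms-ps had 0. Whether reads shared with such copies were counted on the parent gene or dropped is not given in the sources used here. Tk1 lies within an antisense gene model, Gm20708, which had 0 counts, and its 5′ end overlaps the 5′ end of Afmid, on the opposite strand, by 169 bases. Afmid was at most 2.96 CPM in a well.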

How the data were processed

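The deposited values are raw counts per Ensembl gene from 3′ tag sequencing, in 1 table with a column for each of 24 wells. Cutadapt 1.18, STAR and the build GRCm39 are named in the submitters' processing notes, without their roles, and the annotation, the use of strand and the treatment of PCR duplicates are not given in the sources used here. Symbols were found for 52083 of 55359 rows (94.1%). No column was left unmapped (0).

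Counts were fitted over all genes with edgeR 4.0.16 in R 4.3.3 (TMM, filterByExpr with a minimum of 10 counts, quasi-likelihood test, Benjamini-Hochberg adjustment over all genes tested, threshold 0.05). Each dose was fitted together with the 6 controls of its experiment, and the difference between the doses over all 24 wells. SEs are the fold change over the root of F, and 95% intervals are normal ones from them. The fit was tested on simulated data. CPM is the count over the well's total. In 60 pairs of wells of 1 group, no pair agreed within sampling noise (largest chi-square p = 3.4e-11). Promoters are from RefSeq on GRCm38.p6, and their coordinates were mixed with no other build.

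The members and the gene lists were chosen with earlier results of these data known. Genes outside the members are named by a fixed rule: up to 5 per list with the smallest p among those that passed at 30 mM, at 10 mM or for the difference, up to 3 between controls, the 5 genes most like the members (mean log2 CPM at least 3, prior count 2), and Mcm8 and Mcm9 as a whole list. Cell type markers are given as whole lists, with a few of them named. Alternatives were other scalings (RLE, upper quartile), no filter, DESeq2 1.42.0, limma 3.58.1 (voom), a replicate block, the total count as a covariate, a joint fit, other thresholds and leaving out each well.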

Additional observations from a re-analysis of the deposited data

Results flagged for a closer look

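In the 30 mM group, replicate 2 had an Rrm2 level of 84.5 CPM, far from the other 5 wells, which lay between 71.6 and 73.8 CPM. In the 10 mM group, replicate 3 had a Tk1 level of 37.9 CPM, while the other 5 wells lay between 24.5 and 28.9 CPM. By Dixon's test at the 95% level, chance alone marks about 1 in 20 groups, which is 2.4 of the 48 series tested, and 2 were marked.

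For 3 helicase genes the change at 30 mM differed from that at 10 mM by the interaction test in edgeR, each dose against its own controls. The difference of the log2 fold changes was -0.54 for Mcm3, -0.79 for Mcm6 and -0.50 for Mcm7. Dose, experiment and batch cannot be told apart in this contrast.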

How the results depend on the processing

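The count of members called at 30 mM was 8. It was 5 at an adjusted p under 0.01 and 4 with a log2 fold change of at least 0.5 in size as well, and from 5 to 8 with 1 well left out, lowest without replicate 3 or 4 at 30 mM or control replicate 3. In all 20 other fits all 10 members were negative, Mcm3, Mcm6, Mcm7, Rrm2 and Tyms were called, and Mcm4 and Pcna were not. Mcm5 was called in 17, Mcm2 in 8 and Tk1 in 4. At 10 mM the count was 0, but 1 (Rrm2) with upper quartile normalization or at an adjusted p under 0.1, and from 0 to 1 with 1 well left out. Between control groups it was 5, but 3 with the total count as a covariate and 1 with a log2 difference of at least 0.5, and from 4 to 5 with 1 well left out. For the difference between the doses it was 3, but 2 at an adjusted p under 0.01, 4 at one under 0.1 and from 3 to 4 with 1 well left out, and Mcm3, Mcm6 and Mcm7 were called at 0.05 in all 31 other fits.

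Over all genes, at 30 mM 1280 became 641 (adjusted p under 0.01) or 444 (change of at least 0.5). At 10 mM 89 became 21 in the joint fit, and 28, 150 and 17 under the other thresholds, with 37 as the lowest with 1 well left out. Between controls 5880 became 3168 with a difference of at least 0.5. For the difference between the doses 481 became 307 with the total count as a covariate, 173, 854 and 273 under the other thresholds, and 759 or 723 without replicate 1 or 2 at 30 mM.

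Replicate numbers did not pair the wells: same-numbered wells correlated from -0.17 to 0.23 in experiment 1, where 1 of 6 correlated best with its own number, and from -0.04 to 0.04 in experiment 2 (0 of 6). With a replicate block the members called were 7 at 30 mM, 0 at 10 mM, 5 between controls and 3 for the difference, and 1208, 68, 5860 and 461 of all genes. Counts of 27 to 231 per well limit what can be seen for single members. The changes of Mcm4 and Pcna at 30 mM did not pass, while changes of that size passed in some other genes.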

Other observations

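The mitosis and G2/M genes had a median log2 fold change at 30 mM of -0.47, near the -0.44 of the members. CCAAT was found in 17 of 19 of their promoters (89.5%) and in 7 of 9 of the members (77.8%), against 41.1% of gene symbols. An E2F word was found in 1 of 19 (5.26%) and 4 of 9 (44.4%), against 2.6% of gene symbols. CCAAT was also found in 7 of 9 promoters of chromatin genes (77.8%). In the other lists an E2F word was found in 6 of 14 promoters of licensing genes, 9 of 25 of fork proteins, 3 of 9 of chromatin genes, 6 of 14 of E2F and RB genes and 0 of 14 of other nucleotide enzymes. These are counts of letters in fixed windows, with no test.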
